A study of Mus musculus with 12 samples.

Results

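The genes described here are 37 mouse genes of glycolysis and of the response to low oxygen, given as a list of symbols. Probes were taken as theirs when the RefSeq accession printed with the probe mapped to one of the symbols. A probe was found for 35 of the 37 (54 probes), and Gapdh and Ndrg1 are not analysed here. Pdk4 had a probe that was not well above background on any array, so 34 members were tested among 18404 genes in all, and all 34 probes used were well above background on all 12 arrays.

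The cells were dendritic cells grown from the bone marrow of female mice 6 to 8 weeks old. Marrow was cultured with GM-CSF at 20 ng/ml, and on day 7 the floating and loosely attached cells were taken as immature dendritic cells, antigen-presenting cells not yet activated. They were incubated with nanoparticles of poly(γ-glutamic acid) (γ-PGA), a polymer of glutamate that is being studied as a vaccine carrier. The protocol gives 300 µg/ml of particles. The 4 groups were 0, 6, 12 and 24 h of exposure, with 3 samples each, and the series is described as coming from 3 independent experiments. The labels do not name the strain, and no culture kept for 6, 12 or 24 h without particles was analysed here, so time in culture and exposure to the particles cannot be told apart.

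Total RNA was labelled with a single dye and hybridised to 12 Agilent whole-genome arrays, whose number limits the precision. Each gene has values from 2 sources, which come from the same samples and are not independent. The scanner values are the brightness of a probe divided by the 75th percentile of its array. The authors' deposited value table gives ratios to the median of the 3 samples at 0 h, and how its columns were scaled against each other is not known. A gene is called changed when it passes both marks set here, a change of at least 2-fold and a limma p under 0.05 after Benjamini-Hochberg adjustment across the 18404 genes, and "rose" and "fell" are used only of such genes.

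The 2 sources do not describe the 24 h samples alike, which bears on every result at that time. On the scanner arrays labelled 24 h, the log2 values correlated at 0.991 on average with those labelled 0 h, against 0.923 with those labelled 6 h and 0.91 with those labelled 12 h. In the value table, the columns labelled 24 h correlated at 0.896 with those labelled 12 h and at 0.742 with those labelled 6 h. The table's correlations with its 0 h columns cannot measure likeness to 0 h, since the ratios are to the 0 h median. They were 0.0319 for 6 h, 0.03 for 12 h and 0.031 for 24 h, and -0.236 among the 0 h columns themselves. Across all genes, the changes against 0 h in the 2 sources correlated at 0.73 for 6 h, 0.54 for 12 h and -0.075 for 24 h. The samples labelled 24 h are therefore described apart in each source. Fits without the 24 h samples kept all 26 scanner calls and all 25 table calls that members had among the other times. These are the calls at 6 h and 12 h against 0 h and at 12 h against 6 h.

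The 8 dendritic cell markers examined all had a probe well above background on all arrays at 0 h. Their summed scanner level was 459 to 481 at 0 h, 449 to 507 at 6 h, 482 to 544 at 12 h and 455 to 464 at 24 h. The sum is mostly that of the brightest, H2-Ab1, Cd74 and H2-Aa. Among the dimmer ones, Itgax went from 52.3-56.6 at 0 h down to 37.8-39.4 at 12 h. Ciita went up from 9.72-10.6 to 14.5-16, and Zbtb46 from 0.367-0.406 to 0.873-0.946. Cd209a was not well above background on any array at 6 or 12 h. In the scanner values 1 of the 8 rose and 1 fell at 6 h and again at 12 h. That was beside 10.2% and 15.9% of all genes at 6 h, and 13.7% and 16.9% at 12 h. By the table's ratios 2 rose and 1 fell at 6 h, 1 and 1 at 12 h, and 1 and 2 at 24 h. Shares of all genes there were 13.2% and 11.8%, 15.7% and 12.1%, and 13.3% and 13%. The summed scanner level of 4 macrophage markers was 127 to 129 at 0 h, 138 to 153 at 6 h, 261 to 288 at 12 h and 127 to 134 at 24 h. Singly, 2 of these 4 fell at 6 h in the scanner values (15.9% of all genes did). At 12 h 1 rose and 1 fell there (13.7% and 16.9% of all genes). From 0 h to 12 h, Fcgr1 went from 40.4-41 to 127-140 and Adgre1 from 84.6-85.4 to 132-146. Mertk went from 0.453-0.491 to 0.843-0.94, and Mrc1 from 1.93-2.05 down to 0.7-0.805. By the table's ratios 2, 3 and 2 of the 4 fell at 6, 12 and 24 h (11.8%, 12.1% and 13% of all genes did). The summed scanner level of 8 granulocyte and precursor markers was 294 to 302, 283 to 326, 335 to 383 and 294 to 302, with S100a8 and S100a9 the brightest. Singly, 2 of these 8 fell in the scanner values at 6 h (15.9% of all genes did), and none was called at 12 or 24 h. By the table's ratios 4, 5 and all 8 of them fell at 6, 12 and 24 h (11.8%, 12.1% and 13% of all genes did). The sums of the other marker lists were far smaller. That of 5 mast cell markers was 1.01 to 1.09 at 0 h, 1.18 to 1.65 at 6 h, 1.77 to 1.87 at 12 h and 1.14 to 1.18 at 24 h. For 5 erythroid markers it was 0.301 to 0.35, 0.216 to 0.25, 0.291 to 0.385 and 0.475 to 0.492, with Klf1 not well above background on any array. For 4 lymphocyte markers it was 0.563 to 0.597, 0.59 to 0.783, 0.783 to 0.847 and 0.491 to 0.513; 3 of the 4 were well above background on every array and Ncr1, of natural killer cells, on none. The part of other cells in the results below was not tested, and in such mixed RNA fewer cells of a type and less RNA per cell cannot be told apart.

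Glycolysis breaks glucose down to pyruvate in the cytosol. Glucose enters through transporters of the Slc2a family, is trapped by hexokinases and is committed to breakdown by phosphofructokinase, whose activity the PFKFB enzymes set through fructose 2,6-bisphosphate. Lactate dehydrogenase turns pyruvate into lactate, which leaves through Slc16a transporters, and pyruvate dehydrogenase kinases hold pyruvate back from the mitochondria. The transcription factor HIF-1, of which Hif1a encodes the regulated subunit, drives many of these genes; prolyl hydroxylases (Egln genes) mark HIF1A for destruction when oxygen is present. Activated dendritic cells and macrophages are known to turn to glycolysis and to stabilise HIF1A without a lack of oxygen.

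HIF-1 binds a core of the letters ACGTG or GCGTG, and the promoters of the genes called alike in both sources, and of the gene called in opposite directions, are shown to let a reader see where those letters stand. Each sequence is 120 bases upstream of a transcription start of RefSeq's annotation of GRCm38.p6, written on the gene's strand, with every core in capitals on whichever strand it lies (overlapping cores run together).

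Slc2a1, chr4:119108625-119108744, plus strand: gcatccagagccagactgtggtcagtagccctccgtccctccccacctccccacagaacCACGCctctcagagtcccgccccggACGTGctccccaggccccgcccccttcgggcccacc
Slc2a6, chr2:27027999-27028118, minus strand: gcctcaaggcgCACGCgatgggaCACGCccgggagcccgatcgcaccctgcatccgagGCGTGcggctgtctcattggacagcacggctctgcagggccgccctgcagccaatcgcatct
Pfkfb3, chr2:11502101-11502220, minus strand: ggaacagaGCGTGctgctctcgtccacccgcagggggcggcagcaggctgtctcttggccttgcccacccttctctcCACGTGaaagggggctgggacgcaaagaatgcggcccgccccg
Eno2, chr6:124769674-124769793, minus strand: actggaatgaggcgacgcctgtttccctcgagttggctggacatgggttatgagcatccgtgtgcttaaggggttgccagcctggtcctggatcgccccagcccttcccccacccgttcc
Pdk1, chr2:71873104-71873223, plus strand: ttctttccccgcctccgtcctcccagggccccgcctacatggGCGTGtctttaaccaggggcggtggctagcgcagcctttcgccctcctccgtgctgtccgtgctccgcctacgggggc
Egln3, chr12:54203985-54204104, minus strand: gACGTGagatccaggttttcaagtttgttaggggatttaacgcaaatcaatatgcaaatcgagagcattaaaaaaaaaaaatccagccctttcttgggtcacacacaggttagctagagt

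The stretches of Slc2a1, Slc2a6 and Pfkfb3 hold 2, 3 and 3 cores, those of Pdk1 and Egln3 hold 1 each, and that of Eno2 holds none. Since the stretches were picked by their cores, these counts are the highest found in a stretch of 120 bases upstream of each start shown. Slc2a6 has 4 cores upstream in all, of which its stretch shows 3. A window of 250 bases before to 50 bases after the start was searched on both strands, a palindromic CACGTG counting for both. Of the members, 34 had such a window, and Slc2a3, Bnip3l and Ndrg1 had none in the RefSeq table. A core stood in 39 of the 48 member windows (81.2%), against 43.8% of all 32851 windows, and the member windows were richer in G and C (median 62.2%, against 52.7%). Counted by gene, 31 of 34 members (91.2%) had a core in at least 1 window, against 46.7% of all genes. The Eno2 window held no core, while that of Bnip3, which encodes a mitochondrial protein of the autophagy of mitochondria, held 5. At the starts not shown, the further Pfkfb3 window held 1 core and the further Pdk1 window 0. A match of letters is a description, not a binding site.

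At 6 h, 2 sugar transporters, 1 PFKFB enzyme and the neuronal-type enolase rose in both sources, and 1 pyruvate dehydrogenase kinase fell in both. In the scanner values 10 members were called, where 26.1% of all genes were called, with 7 higher (10.2% of all genes) and 3 lower (15.9%). By the value table there were 13, where 25% of all genes were called, with 4 higher (13.2% of all genes) and 9 lower (11.8%). Both sources called the same 4 members higher, namely Slc2a1, Slc2a6, Pfkfb3 and Eno2 (6.6% of all genes were called higher in both), and 1 lower, Pdk1 (7.86% of all genes). Egln3 was called in opposite directions, as 0.456% of all genes were. With the table columns centred on their medians, which removes the shift of all genes, 3 members were higher and 11 lower, as were 1977 and 2608 of all genes in place of 2438 and 2170. The median member log2 change was 0.20 in the scanner values and -0.44 in the value table, beside -0.06 and 0.14 over all genes.

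At 12 h the scanner values called 14 members, where 30.6% of all genes were called, with 12 higher (13.7% of all genes) and 2 lower (16.9%). The value table called 9, where 27.8% of all genes were called, with 5 higher (15.7% of all genes) and 4 lower (12.1%). The same 4 genes were again higher in both sources (6.4% of all genes), no member was lower in both (6.34% of all genes), and Egln3 again went opposite ways (1.6% of all genes). With the table columns centred on their medians, 3 members were higher and 7 lower at 12 h, as were 2115 and 2819 of all genes in place of 2888 and 2227. The median member log2 change was 0.48 in the scanner values and -0.05 in the value table, beside -0.03 and 0.22 over all genes. The 6 h, 12 h and 24 h comparisons use the same 0 h samples, so that their changes are not independent of each other.

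**Figure D1:**
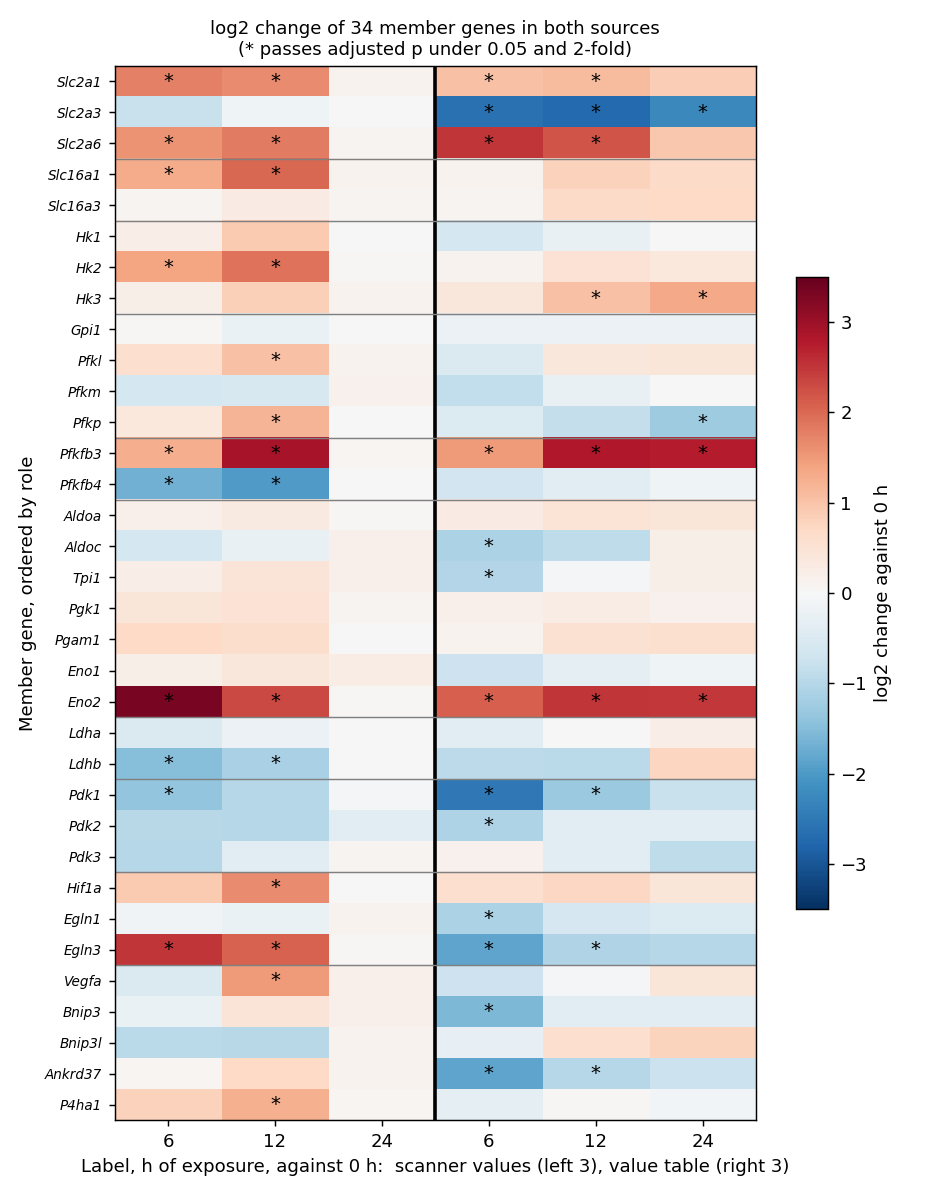
Log2 change against 0 h for the 34 tested members (rows, ordered by role) in each source at 6, 12 and 24 h (columns), as group means over 3 samples (2 for Ldha at 6 h in the scanner values), with red for higher and blue for lower than 0 h. Eno2, Pfkfb3, Slc2a1 and Slc2a6 are red at 6 and 12 h in both sources, and the scanner column at 24 h is near 0 throughout (-0.41 to 0.25); Aldoa, saturated on all arrays, has no fold to be read in the scanner columns.

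Among the glucose transporters, Slc2a1 (GLUT1), the widespread carrier for basal glucose uptake, rose. Its scanner level was 15.1, 15.1 and 14.7 times the 75th percentile at 0 h, 54.3, 48.5 and 50.7 at 6 h, 49.3, 49.3 and 43.7 at 12 h, and 15.7, 15.8 and 16.9 on the arrays labelled 24 h. All samples at 6 and 12 h lay above all at 0 h, and those at 6 and 12 h overlapped. The log2 change was 1.77 at 6 h (SE 0.0609, adjusted p = 2.06e-09, limma) and 1.66 at 12 h (SE 0.0609, adjusted p = 2.38e-09, limma), or 3.42-fold and 3.17-fold. Ratios in the value table were 1.04, 0.927 and 1 at 0 h, 2.3, 1.9 and 1.89 at 6 h, 2.17, 2.12 and 2.08 at 12 h, and 1.89, 1.76 and 1.76 at 24 h. There too the later samples all lay above those at 0 h, by a log2 change of 1.03 at 6 h and 1.10 at 12 h (2.05-fold and 2.15-fold), just past the threshold. The table calls were lost with columns centred on their medians (log2 change 0.89 at 6 h, 0.88 at 12 h), and the call at 6 h also without 6 h sample 1 (0.94) or 0 h sample 2 (0.99).

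Slc2a6 (GLUT6), a sugar carrier of lysosomal membranes that is abundant in leukocytes, had the larger table ratio of the pair. Scanner levels were 39.1, 39 and 39.4 at 0 h, 120, 108 and 122 at 6 h, 140, 130 and 144 at 12 h, and 42.4, 42.1 and 42.2 on the arrays labelled 24 h. The log2 change was 1.57 at 6 h and 1.82 at 12 h (SE 0.0523 for both), and the 6 h samples all lay below the 12 h samples. Table ratios were 1, 0.959 and 1.12 at 0 h, 6.11, 5.55 and 5.6 at 6 h, 4.71, 4.97 and 4.37 at 12 h, and 1.95, 1.93 and 2 at 24 h. In that source the 6 h samples were the highest, with a log2 change of 2.49 against 2.19 at 12 h. At 24 h the table ratio was between those at 12 h and 0 h, with a log2 change of 0.94 against 0 h that was under the 2-fold mark.

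Slc2a3 (GLUT3), the high-affinity carrier, did not follow them. Its scanner level averaged 1.54 at 0 h, 0.896 at 6 h, 1.40 at 12 h and 1.57 on the arrays labelled 24 h, so that the scanner change at 6 h, -0.78 log2, was not past 2-fold. By the value table it fell, with mean ratios of 0.16 at 6 h, 0.147 at 12 h and 0.201 at 24 h, and log2 changes of -2.60, -2.73 and -2.27. Of the lactate carriers, Slc16a1 (MCT1), which moves lactate in or out by its gradient, rose in the scanner values by 1.30 log2 at 6 h and 2.02 at 12 h. The table gave it 0.13 and 0.79, neither called, though 1 of its 3 probes was called higher there at 12 h (1.05) and 24 h (1.02). Slc16a3 (MCT4), the carrier of lactate export in glycolytic cells, was not called at any time in either source (0.08 at 6 h and 0.28 at 12 h in the scanner values, 0.11 and 0.66 in the table).

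**Figure D2:**
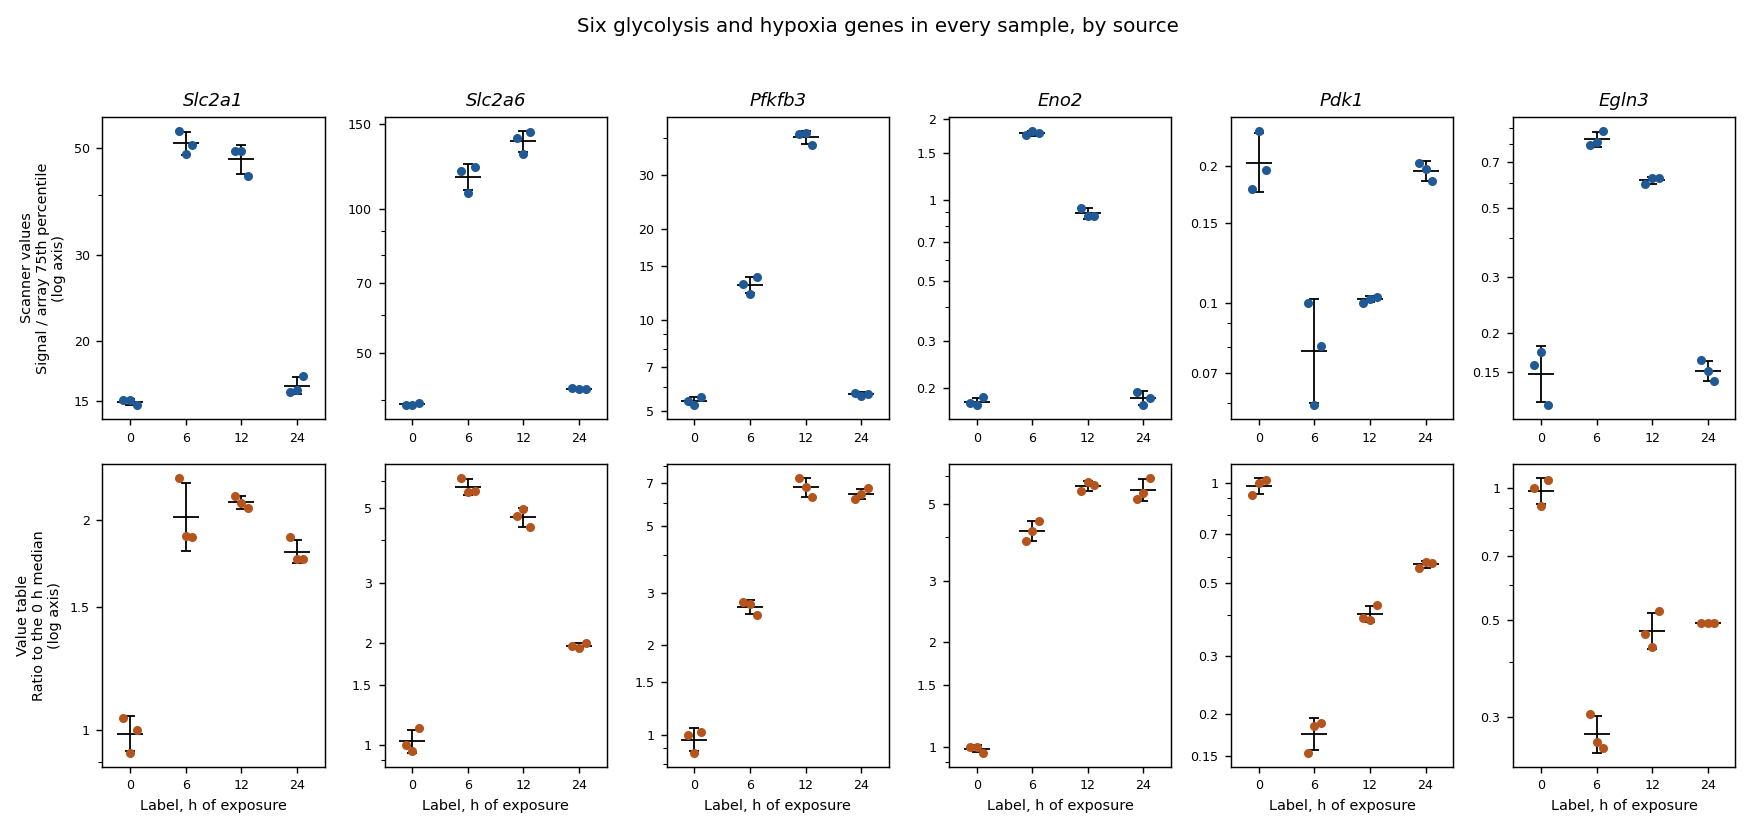
Level of the members called in both sources at 6 or 12 h, in every sample, by labelled time of exposure. Upper panels show scanner values (probe brightness divided by the array's 75th percentile) and lower panels the value table's ratio to the 0 h median, both on log axes, with points for samples and bars for the mean ± SD of log2 values (3 samples a group). Slc2a1, Slc2a6, Pfkfb3 and Eno2 stand above 0 h at 6 and 12 h in both rows, Pdk1 stands below, and Egln3 stands above in the upper row and below in the lower.

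Among the hexokinases, Hk2, the inducible isoform bound to mitochondria, rose in the scanner values by 1.38 log2 at 6 h and 1.89 at 12 h (2.61-fold and 3.71-fold). Its table changes were 0.13 and 0.52, so the call rests on the scanner values. Hk3, an isoform of myeloid cells, rose in the value table by 1.03 log2 at 12 h and 1.34 at 24 h, and had 0.84 at 12 h in the scanner values. The table call of Hk3 at 12 h was lost with columns centred on their medians (0.81) and without 0 h sample 3 (0.99). Hk1, the housekeeping isoform, was not called (0.23 at 6 h and 0.93 at 12 h in the scanner values, -0.62 and -0.25 in the table). Of its 4 probes, 1 was called higher in the scanner values at 12 h (1.28). That probe was well above background at 12 h alone and was kept for that group, so its call adds no support.

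Gpi1, which converts glucose 6-phosphate to fructose 6-phosphate, was saturated on all arrays at 0 h and 24 h, and its scanner level at 12 h was at least 1.18-fold lower than at 0 h. The phosphofructokinase subunits differed. Pfkp, the platelet type, rose by 1.18 log2 at 12 h in the scanner values, but a further probe gave 0.23. In the value table it was at -0.48 at 6 h and -0.84 at 12 h and fell by 1.25 log2 at 24 h, and the further probe was called lower there at 6 h (-1.02) and 12 h (-1.23). Pfkl, the liver type, was at 1.02 log2 at 12 h in the scanner values, at the edge of the call, and lost it without 0 h sample 3 (0.99) or 12 h sample 2 (0.996) and with the slide as a block (0.98). Pfkm, the muscle type, was not called (-0.61 at 6 h and -0.57 at 12 h in the scanner values, -0.87 and -0.25 in the table).

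Pfkfb3, the isoform that favours synthesis of fructose 2,6-bisphosphate and so activates phosphofructokinase, rose at 6 h and further at 12 h. Its scanner levels were 5.4, 5.21 and 5.56 at 0 h, 13.1, 12.2 and 13.8 at 6 h, 41.2, 41.4 and 37.9 at 12 h, and 5.75, 5.61 and 5.69 on the arrays labelled 24 h. The groups at 0, 6 and 12 h did not overlap. The log2 change was 1.27 at 6 h and 2.90 at 12 h (SE 0.054 for both), or 2.42-fold and 7.44-fold. Table ratios were 1, 0.869 and 1.02 at 0 h, 2.78, 2.74 and 2.52 at 6 h, 7.25, 6.8 and 6.28 at 12 h, and 6.2, 6.41 and 6.71 at 24 h. The table thus gave 1.48 and 2.82 log2 at 6 and 12 h, and 2.74 at 24 h. Its 3 probes were each called higher at 6 and 12 h in both sources, though 1 of them was well above background on only 1 array at 0 h.

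Pfkfb4, a second enzyme of the kind, moved the other way in the scanner values. It fell by 1.69 log2 at 6 h and by 1.99 at 12 h, with mean levels of 16.4 at 0 h, 5.08 at 6 h and 4.12 at 12 h. In the value table its changes were -0.67 and -0.36, of the same sign but not called.

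Between aldolase and enolase, 7 members were tested, and Eno2 was the one called in both sources. Eno2 encodes gamma-enolase, the isoform known from neurons. Its scanner levels were 0.176, 0.174 and 0.185 at 0 h, 1.74, 1.81 and 1.77 at 6 h, 0.938, 0.87 and 0.869 at 12 h, and 0.194, 0.173 and 0.184 on the arrays labelled 24 h. The samples at 6 h stood above those at 12 h, and both above those at 0 h. The log2 change was 3.31 at 6 h (SE 0.053, adjusted p = 1.57e-11, limma) and 2.32 at 12 h (SE 0.053, adjusted p = 8.47e-11, limma), or 9.94-fold and 5.0-fold. Eno2 was dim at 0 h, so the size of the change depends on the processing. Under the alternatives the scanner change went as low as 2.44 at 6 h and 1.56 at 12 h, still called.

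The value table ordered the 2 times differently. Its Eno2 ratios were 1, 1 and 0.959 at 0 h, 3.89, 4.18 and 4.45 at 6 h, 5.43, 5.75 and 5.67 at 12 h, and 5.16, 5.36 and 5.92 at 24 h. The log2 change was 2.08 at 6 h, 2.51 at 12 h and 2.47 at 24 h, so the 6 h samples were the lowest of the exposed ones there. Both Eno2 probes were called at 6 and 12 h in both sources.

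The other 6 members of this stretch changed less. Eno1, the common enolase, had 0.21 and 0.40 log2 at 6 and 12 h in the scanner values and -0.73 and -0.34 in the table. Pgk1, which makes the first ATP, had 0.43 and 0.50 (0.19 and 0.25 in the table), and Pgam1, the next enzyme, 0.69 and 0.63 (0.12 and 0.54 in the table), none called. Aldoa was saturated on all arrays and has no fold in the scanner values. Aldoc, the brain-type aldolase, and Tpi1, triose phosphate isomerase, fell in the table at 6 h (-1.09 and -1.03) and had -0.63 and 0.22 in the scanner values. With the slide as a block both table calls were lost (-0.99 and -0.95), and Tpi1 also lost it without 0 h sample 3 or 6 h sample 3 (-0.98 each).

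Ldhb, the heart-type lactate dehydrogenase, which favours the use of lactate, fell in the scanner values by 1.49 log2 at 6 h and by 1.14 at 12 h. Its mean levels were 6.74 at 0 h, 2.4 at 6 h and 3.07 at 12 h. The table ran the same way but under 2-fold (-0.92 and -0.94), and at 24 h it had 0.75. With the table columns centred on their medians, Ldhb also fell there at 6 h (-1.07) and 12 h (-1.17), so that it was then lower in both sources. Ldha, the muscle-type subunit that favours lactate production, was not called (-0.49 and -0.19 in the scanner values, -0.41 and -0.02 in the table). One spot of it at 6 h was an outlier and was left out of the fit, so that 2 samples stand for 6 h.

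Pdk1 phosphorylates and so inhibits pyruvate dehydrogenase, and it is usually induced by HIF-1. Here its scanner levels were 0.178, 0.239 and 0.196 at 0 h, 0.1, 0.0594 and 0.0802 at 6 h, 0.1, 0.102 and 0.103 at 12 h, and 0.203, 0.197 and 0.185 on the arrays labelled 24 h. The 6 h and 12 h samples all lay below those at 0 h. The fall at 6 h was -1.38 log2 (SE 0.168, adjusted p = 3.34e-05, limma), and at 12 h the change was -0.99, just short of 2-fold. With the slide as a block it was -1.02 at 6 h, still called, and -0.46 at 12 h, not called. With normexp background correction the change at 6 h was -0.63, under 2-fold. Table ratios were 0.918, 1 and 1.02 at 0 h, 0.153, 0.184 and 0.188 at 6 h, 0.391, 0.386 and 0.428 at 12 h, and 0.553, 0.579 and 0.575 at 24 h. They were lowest at 6 h, with log2 changes of -2.49 at 6 h, -1.29 at 12 h and -0.78 at 24 h.

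Pdk2 and Pdk3, kinases of the same family, had scanner changes of -0.97 and -0.99 at 6 h, neither past 2-fold. In the value table Pdk2 fell at 6 h (-1.07), a call lost without 0 h sample 3 (-0.91), 6 h sample 1 (-0.95) or 6 h sample 2 (-0.98), and Pdk3 had 0.14. A further Pdk3 probe was called lower in the scanner values at 6 h (-1.35), and in the table at 24 h (-1.11), where the probe used had -0.88.

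Hif1a rose in the scanner values at 12 h by 1.66 log2 (3.17-fold), with mean levels of 5.45 at 0 h, 10.4 at 6 h and 17.3 at 12 h. At 6 h the change was 0.93, and with the slide as a block it was 1.07 and called. The table gave 0.58 at 6 h and 0.72 at 12 h, and with the slide as a block 1.01 and called at 12 h. Messenger RNA does not show how much HIF1A protein was present, since that protein is set mainly by its breakdown.

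Egln3 (PHD3), a prolyl hydroxylase that is itself induced by HIF-1, went opposite ways in the sources. Its scanner levels were 0.157, 0.174 and 0.117 at 0 h, 0.794, 0.81 and 0.883 at 6 h, 0.595, 0.622 and 0.622 at 12 h, and 0.163, 0.151 and 0.14 on the arrays labelled 24 h. That is a log2 change of 2.49 at 6 h and 2.06 at 12 h, with no overlap with 0 h. Under the alternatives the scanner change of Egln3, dim at 0 h, went as low as 1.60 and 1.21, still called. Its table ratios were 1, 0.91 and 1.04 at 0 h, 0.306, 0.264 and 0.255 at 6 h, 0.465, 0.433 and 0.523 at 12 h, and 0.491, 0.492 and 0.491 at 24 h. There the log2 change was -1.84 at 6 h and -1.06 at 12 h, again with no overlap, and the call at 12 h was lost with the slide as a block (-0.89) and without 12 h sample 2 (-0.99). Both sources read the same single probe, and why they differ was not tested. Egln1 (PHD2), the main oxygen sensor, fell in the table at 6 h (-1.12) and had -0.12 in the scanner values.

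**Figure D3:**
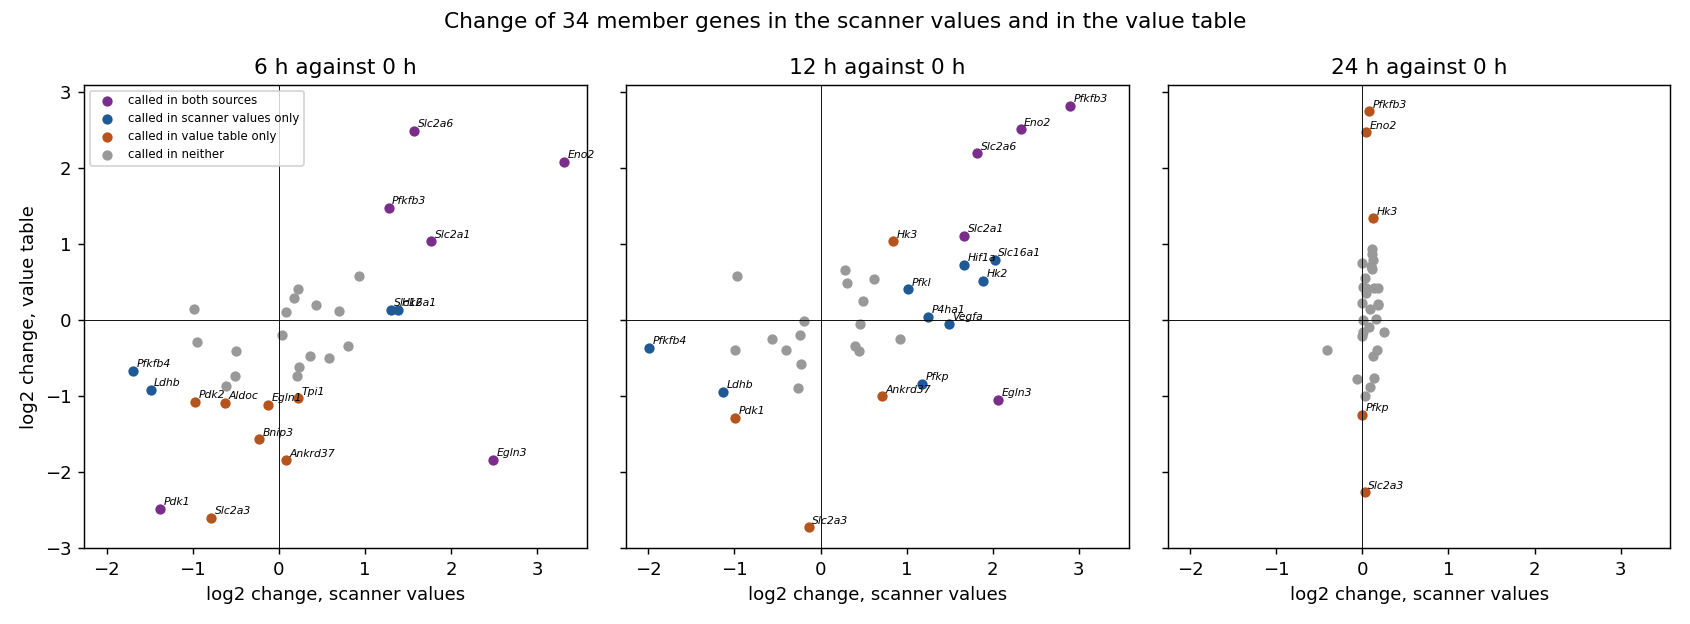
Log2 change against 0 h in the scanner values (horizontal axis) and in the value table (vertical axis) for each of the 34 tested members at 6, 12 and 24 h (one panel each), as means over 3 samples a group. Eno2 and Pfkfb3 lie high on both axes at 6 and 12 h, Egln3 lies high on the scanner axis and below 0 on the table axis, and at 24 h the members spread along the table axis (-2.27 to 2.74) with little spread on the scanner axis.

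Of the other genes known as induced by hypoxia, Vegfa, the main growth factor of blood vessels, was at -0.51 log2 at 6 h and rose by 1.49 at 12 h in the scanner values. A further probe gave 1.30 at 12 h, and another gave -1.56 at 6 h and 0.31 at 12 h, so the rise does not hold for every probe. In the table the probe used had -0.74 and -0.05, and the others were called lower at 6 h (-1.002 and -1.63). P4ha1, a prolyl hydroxylase of collagen, rose by 1.25 log2 at 12 h in the scanner values, with a change of 0.04 in the table.

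Bnip3 and Ankrd37, 2 strongly HIF-dependent genes in many cell types, fell in the table at 6 h (-1.57 and -1.85) and had -0.23 and 0.08 in the scanner values. At 12 h Ankrd37 still fell in the table (-1.01), a call lost with the slide as a block (-0.74) and without 0 h sample 1, 0 h sample 3 or 12 h sample 2 (-0.98 each). Bnip3l, a relative of Bnip3, had -0.95 and -0.97 in the scanner values and -0.29 and 0.58 in the table, none called. A further Bnip3l probe, also well above background, was called lower in the scanner values at 6 h (-1.15) and 12 h (-1.22).

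**Figure D4:**
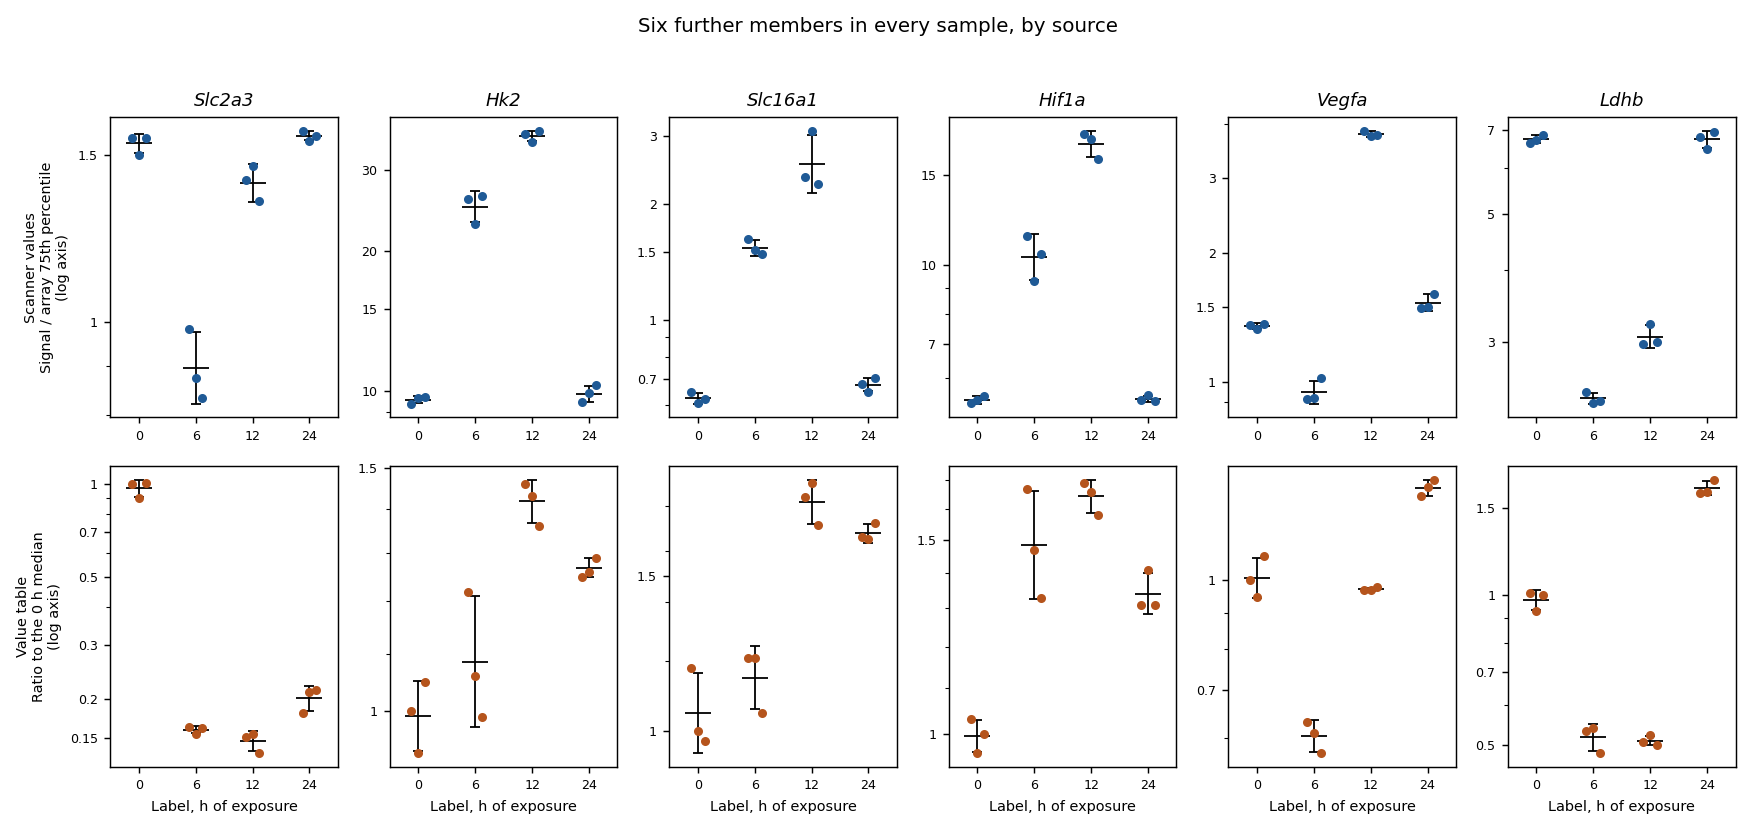
Level of 6 further members in every sample by labelled time of exposure, with scanner values above and the value table's ratio to the 0 h median below, on log axes, with points for samples and bars for the mean ± SD of log2 values (3 samples a group). Hk2, Slc16a1 and Hif1a stand higher at 6 and 12 h than at 0 h in the upper row, Vegfa stands high at 12 h there, Ldhb stands lower at 6 and 12 h in both rows, and Slc2a3 stands far lower in the lower row.

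Each of the followed genes can also be read within a slide, since the arrays lay on 3 slides, each with a scan of its own, that did not hold the groups evenly. Slide 1 held the 3 samples at 0 h and 1 sample at 6 h. There the scanner difference of that sample from 0 h was 1.86 log2 for Slc2a1, 1.62 for Slc2a6, 1.28 for Pfkfb3, 3.29 for Eno2, -1.02 for Pdk1 and 2.43 for Egln3. The table differences were 1.22, 2.58, 1.53, 1.98, -2.68 and -1.68 for the same genes. Slide 2 held 2 samples each of 6 h and 12 h, and there Pfkfb3 was higher at 12 h than at 6 h by 1.67 log2 in the scanner values and 1.42 in the table. No slide held both 12 h and 0 h samples.

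Against 6 h, 12 h brought 2 calls among members in the scanner values (6.99% of all genes) and 3 in the table (5.8% of all genes). All were higher at 12 h (4.88% and 3.07% of all genes were) and none lower (2.1% and 2.73% of all genes). Pfkfb3 was higher at 12 h in both, by 1.62 and 1.34 log2. Vegfa was higher in the scanner values by 2.00 log2, and in the table Bnip3 (1.16) and Pdk1 (1.20) were higher at 12 h than at 6 h, both with ratios still below those at 0 h.

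At 24 h no member was called in the scanner values, where 0.837% of all genes were called (0.696% higher, 0.141% lower; 24 to 292 genes in place of 154 when 1 array was left out, lowest without 24 h sample 2 and highest without 12 h sample 3), and the members' log2 changes ran from -0.41 to 0.25. The table called 5 members at 24 h, where 26.3% of all genes were called, 13.3% higher and 13% lower. Pfkfb3, Eno2 and Hk3 were higher (2.74, 2.47 and 1.34 log2), and Slc2a3 and Pfkp lower (-2.27 and -1.25). No member was called in both sources at 24 h (0.0652% of all genes were called higher in both, and 0% lower in both). The median member log2 change was 0.08 in the scanner values and 0.20 in the table, beside 0.04 and 0.12 over all genes.

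Against 12 h, the arrays labelled 24 h had 14 members called (31% of all genes), with 3 higher (18.2% of all genes) and 11 lower (12.9%). By the table there were 3 (4.57% of all genes, 1.4% higher and 3.17% lower), with Aldoc and Ldhb higher at 24 h (1.08 and 1.69 log2) and Slc2a6 lower (-1.26). Which source describes the 24 h cells was not settled by these data, so the level of these genes at 24 h is known only by source.

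A wider list of 65 other genes of glycolysis, its side branches, oxygen sensing and the hypoxia response had 55 tested genes. In the scanner values 11 rose and 7 fell at 6 h (10.2% and 15.9% of all genes did), and 12 rose and 7 fell at 12 h (13.7% and 16.9% of all genes), with median log2 changes of 0.10 and 0.19. By the table's ratios 8 rose and 7 fell at 6 h (13.2% and 11.8% of all genes), and 9 rose and 4 fell at 12 h (15.7% and 12.1% of all genes), with medians of 0.18 and 0.42. The 2 branches of the list differed at 12 h in the scanner values. Of 24 oxygen-sensing and hypoxia genes 10 rose and 1 fell there (median 0.70). Of 31 genes of glycolysis and its side branches 2 rose and 6 fell (median -0.08). By the table's ratios 5 rose and 2 fell in the former (median 0.28), and 4 and 2 in the latter (median 0.48). Lox, a collagen cross-linking enzyme, and Edn1, the precursor of endothelin 1, rose in both sources at both times. At 0 h Lox was not well above background on any array, and its scanner level was at least 11.3-fold higher at 6 h and at least 8.28-fold higher at 12 h, each against the higher of the lowest signal well above background and the probe's own. Hmox1, heme oxygenase 1, rose by 2.45 log2 at 6 h in the scanner values and by 4.70 in the table. Its scanner levels at 6 h were 188, 168 and 189, beside 183, 183 and 206 for Aldoa, which was saturated. Whether Hmox1 was saturated too was not tested, so the size of its scanner change is uncertain. Gpd2, the mitochondrial glycerol 3-phosphate dehydrogenase, rose at 6 h by 2.11 log2 in the scanner values, or 4.32-fold, and 2.83-fold in the table. Pgm2l1, which makes glucose 1,6-bisphosphate, fell by 2.06 log2 in the scanner values and by 2.16 in the table at 6 h.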

How the data were processed

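Scanner files were made with Agilent Feature Extraction 9.1.3.1, per the submitters' processing notes. Per the file headers, the processed intensity is background-subtracted and spatially detrended, with 1 dye. The authors' deposited value table holds linear ratios (lowest 0.01) to the median of the 3 samples at 0 h, as read from its values. No header or label says how its columns were scaled.

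From the scanner intensities, log2 was taken and each array's 75th percentile subtracted, over 43379 non-control spots. The 732 spots flagged as outliers were left out, spots of a probe were averaged, and a probe was kept where it was well above background on every array of at least 1 group (23491 of 41174 probes). The kept probe with the highest mean stands for its gene. Of the members, 13 had several kept probes, and the text says where 1 of them was called and another was not. Probe accessions were matched to RefSeq symbols (22937 of 23837 mRNA accessions), and 11577 of the 18404 genes tested have a symbol. The table's ratios were used on the log2 scale for the same probes. limma 3.58.1 in R 4.3.3 fitted the 4 group means over 12 samples (8 residual degrees of freedom) in each source apart, two-sided. In simulated data for 6 h against 0 h over 18404 genes, 88% of changes of 1.5 log2 and 98% of changes of 3 log2 were recovered.

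Replicates are separate samples by the labels. Same-numbered samples did not deviate together (correlations -0.085 to 0.16 in scanner values and -0.077 to 0.23 in the table), so the numbers were not used as pairs. Every member of the list is accounted for. Values in every sample are given for members called alike in both sources at 6 or 12 h, or in opposite directions. The members, the wider list and the markers were chosen with earlier results of these data known. The alternatives were normexp on median signals, since no mean signal was given in the files, quantile and median scaling, no filter on dim probes, the mean of a gene's probes, lowest ratios as missing, slide and replicate blocks, leaving out each sample, and leaving out the 24 h samples.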

Additional observations from a re-analysis of the deposited data

Results flagged for a closer look

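Changes between 2 exposure times are flagged where the change of a member against 0 h differed between them in limma's test over all genes and by at least 2-fold. From 6 h to 12 h, Pfkfb3 was higher at 12 h in both sources (1.62 log2 in the scanner values, 1.34 in the table). Vegfa was higher at 12 h in the scanner values by 2.0 log2, and Bnip3 (1.16) and Pdk1 (1.2) were higher at 12 h in the table.

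From 12 h to 24 h, 14 members differed in the scanner values. The 3 that were higher on the arrays labelled 24 h were Pfkfb4 (2.01 log2), Ldhb (1.13) and Bnip3l (1.09). The 11 that were lower on the arrays labelled 24 h were Pfkfb3 (-2.82), Eno2 (-2.28), Egln3 (-2.02), Slc16a1 (-1.9), Hk2 (-1.85), Slc2a6 (-1.71), Hif1a (-1.66), Slc2a1 (-1.55), Vegfa (-1.31), Pfkp (-1.18) and P4ha1 (-1.17). Those arrays correlated at 0.991 with the 0 h arrays and at 0.91 with the 12 h arrays, and what made them alike was not tested.

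By the value table, 3 members differed between 24 h and 12 h, with Ldhb (1.69) and Aldoc (1.08) higher at 24 h and Slc2a6 (-1.26) lower. Ldhb was the member called higher at 24 h than at 12 h in both sources.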

How the results depend on the processing

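The number of members called stayed within 1.5 times under most alternatives. Quantile normalization of the table left 4 calls at 12 h against 0 h in place of 9, 3 at 24 h against 0 h in place of 5, and 1 at 24 h against 12 h in place of 3. The slide as a block gave 8 table calls at 24 h against 0 h. Leaving out each sample in turn gave 10 to 12 scanner calls and 11 to 13 table calls at 6 h, 14 to 16 and 7 to 9 at 12 h, 0 and 5 to 6 at 24 h, 2 to 3 and 3 to 4 at 12 h against 6 h, and 14 and 3 at 24 h against 12 h. The replicate block moved no count of member calls (10 and 14 in the scanner values at 6 and 12 h, 13 and 9 in the table). No member's call turned direction under any alternative. Of 40 scanner calls of single members 5 were lost under some alternative, and of 33 table calls 15 were, 14 of them under quantile normalization. Those lost there were Slc2a1 (0.88), Pdk2 (-1.06), Aldoc (-0.97) and Egln1 (-1.05, adjusted p = 0.0559, limma) at 6 h, Slc2a1 (0.88), Hk3 (0.62), Pdk1 (-0.89), Egln3 (-0.77) and Ankrd37 (-0.69) at 12 h, Hk3 (0.93) and Pfkp (-0.97) at 24 h, Bnip3 at 12 h against 6 h (0.998), and Aldoc (0.91) and Slc2a6 (-0.96) at 24 h against 12 h. It also cut the genes called over the whole table at 12 h to 3286 in place of 5115, at 24 h to 3168 in place of 4834, at 12 h against 6 h to 395 in place of 1067 and at 24 h against 12 h to 269 in place of 841. With normexp background correction the scanner values called 2576 genes in place of 4799 at 6 h, 3063 in place of 5630 at 12 h, 8 in place of 154 at 24 h, 577 in place of 1286 at 12 h against 6 h and 3154 in place of 5713 at 24 h against 12 h. At 24 h the scanner values called 23 genes with the slide as a block, 86 with the replicate block and 95 with no filter on dim probes. Leaving out 1 array gave 48, 46 and 38 genes there (0 h samples 1, 2 and 3), 38, 24 and 29 (24 h samples 1, 2 and 3) and 292 (12 h sample 3) in place of 154. Centring the arrays on their median log2 signal, an alternative chosen after seeing the data, lost none of the 40 scanner calls. Of the members, Pdk2, Pdk1 and Egln3, which are dim at 0 h, had the largest scanner SEs (0.208, 0.168 and 0.125 log2). The cause of each lost call was not tested.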
